A study of Mus musculus with 12 samples.

Results

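The 10 genes described here, Sox2, Sox4, Sox7, Sox9, Sox11, Sox12, Sox15, Sox17, Sox18 and Sox21, encode SOX transcription factors of the mouse. They were taken by symbol from a list, and all 10 were found among the 43243 gene names of the deposited files, which hold 19 genes named Sox with a number. RNA was sequenced from 12 mouse prostate organoid cultures, 6 with a mutant SPOP (SPOPmut) and 6 without it (SPOPwt), each set carrying the numbers S0 to S5, which were taken as 6 pairs. SPOP brings substrates to an E3 ubiquitin ligase built on cullin 3, and the study asked which genes differ between the genotypes.

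All cultures were started from digested prostate tissue and grown in Matrigel under medium with EGF. The protocols describe 3 kinds of line. In the line called Line_A, cells were infected with a virus carrying CreERT2, a Cre recombinase that a tamoxifen metabolite switches on, and selected with puromycin. In Line_B, CreERT2 came from a TMPRSS2-CreERT2 transgene. Both were induced with 4-hydroxytamoxifen and then sorted for GFP, with sham sorting of controls, so in such pairs an effect of SPOPmut and an effect of the sorting cannot be told apart. The noninducible lines came from PbCre;R26F133V mice, where the Probasin promoter drives Cre, with PbCre negative mice as controls. Of the sequenced pairs, 5 are assigned to a model A and 1 to a model B. The labels say neither which pair is which nor how these models map to the lines, and give the allele of each library only as SPOPmut or SPOPwt. The sources used here do not give age, sex or the number of animals. Whether each pair is a separate culture or animal is not stated either, so the p-values cover the spread among these samples only, and that spread may be technical.

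SOX proteins share the HMG box, a domain that binds the minor groove of DNA and bends it, and they usually act together with a partner factor on nearby DNA. They are grouped by sequence. SoxB factors (Sox2, Sox21) act in stem and progenitor cells of the nervous system and of several epithelia, SoxC factors (Sox4, Sox11, Sox12) in immature neural and mesenchymal cells, and SoxE factors (Sox9) in cartilage, gonad and epithelial progenitors. SoxF factors (Sox7, Sox17, Sox18) act in blood vessels and endoderm, and Sox15 is the only SoxG factor. In the prostate, Sox9 takes part in the growth of epithelial buds, and Sox2 is known from basal cells.

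Libraries held an estimated 28250000 to 40980000 reads. Levels are in RPKM, reads scaled to the length of the transcript and the depth of the library. They can be compared between genes and, roughly, between libraries, whose summed RPKM ran from 316623 to 358260. Markers set pair S5 apart from the other pairs in both genotypes. The summed RPKM of 8 basal epithelial genes was 2302 to 3270 in the S5 libraries and 1.06 to 8.37 in the 10 libraries of S0 to S4. For 12 luminal epithelial genes it was 2377 to 2650 in S5 and 68.2 to 209.9 in the others. The sum of 11 fibroblast and mesenchymal genes was 21.1 to 23.6 in S5 and 3203 to 4564 in the other 10 libraries. Krt5 and Epcam, which mark basal and all epithelial cells, reached at most 0.24 and 1.28 RPKM in S0 to S4, but not all epithelial genes were that low there: the keratins Krt18 and Krt19 stood at 6.35 to 89.6 and 7.06 to 72.2 RPKM. Proliferation genes (4 genes, summed) stood at 4.26 and 9.61 RPKM in S5, at 21.3 and 32.3 in S3, and at 104 to 189 in the other pairs.

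Sox4, Sox9, Sox2 and Sox12 carried most of the signal in S0 to S4. In all 10 of those libraries the order was Sox4, Sox9, Sox2 and Sox12, with mean shares of 47.0, 24.5, 15.3 and 11.8% of the summed RPKM of the 10 genes. In both S5 libraries Sox9 stood first (42.3 and 48.2%), then Sox4 (29.5 and 35.1%), Sox2 (8.33 and 9.04%) and Sox11 (6.14 and 6.89%). The summed RPKM itself was 103 to 104 in S5 and 38.5 to 60.4 in S0 to S4. Over the 10 libraries of S0 to S4, neighbours in this order overlapped in level: Sox4 (16.5 to 33.8 RPKM) with Sox9 (6.91 to 18.1 RPKM), Sox9 with Sox2 (5.61 to 11.3 RPKM), and Sox2 with Sox12 (4.54 to 7.17 RPKM). Within each library the order was the same.

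**Figure D1:**
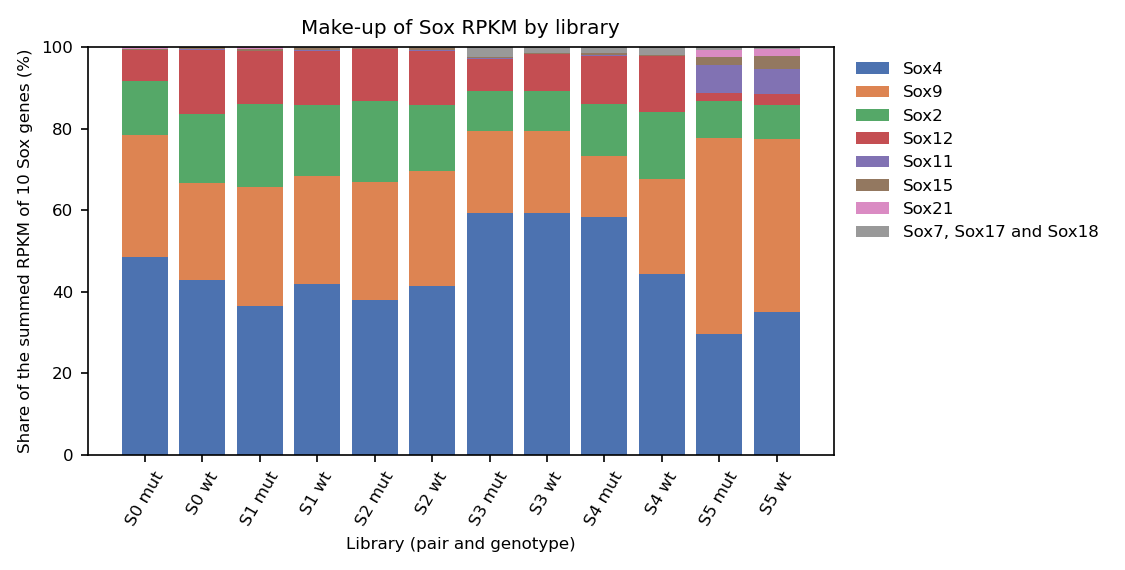
Each bar is 1 library, and the colours give the share of each SOX gene in the summed RPKM of the 10 genes (vertical axis, percent). Sox4 is the largest part in the 10 libraries of S0 to S4, and Sox9 in both S5 libraries, where Sox11 also becomes visible.

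Promoter sequences were at hand for 6 of the 10 genes. They are shown because these 6 cover the 3 patterns that follow: Sox2 and Sox4 at levels that overlap between S5 and the other pairs, Sox12 lower in S5, and Sox11, Sox15 and Sox21 near 0 outside S5. Each run is the 250 bases before the RefSeq start site, written 5′ to 3′ on the gene's own strand (GRCm38.p6). Their positions are chr3:34649745-34649994 for Sox2 (plus strand), chr13:28953700-28953949 for Sox4 (minus), chr2:152398047-152398296 for Sox12 (minus), chr12:27342719-27342968 for Sox11 (minus), chr11:69654787-69655036 for Sox15 (plus) and chr14:118237031-118237280 for Sox21 (minus). Capitals mark the words CCAAT (the CCAAT box), CACCTG (an E-box), ACAAAG or ACAATG (SOX words) and GGGCGG (the GC box), each searched on both strands, so a capital run may be the reverse complement of a word.
Sox2: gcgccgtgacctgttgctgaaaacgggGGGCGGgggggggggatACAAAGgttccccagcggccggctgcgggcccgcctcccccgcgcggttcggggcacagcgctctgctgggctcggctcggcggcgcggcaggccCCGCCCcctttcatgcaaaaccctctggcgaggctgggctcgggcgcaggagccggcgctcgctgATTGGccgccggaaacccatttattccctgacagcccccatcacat
Sox4: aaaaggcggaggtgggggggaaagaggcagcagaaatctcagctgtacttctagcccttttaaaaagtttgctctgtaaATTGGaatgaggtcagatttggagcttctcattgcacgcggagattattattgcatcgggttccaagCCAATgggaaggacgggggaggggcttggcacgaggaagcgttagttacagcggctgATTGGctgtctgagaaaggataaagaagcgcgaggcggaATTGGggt
Sox12: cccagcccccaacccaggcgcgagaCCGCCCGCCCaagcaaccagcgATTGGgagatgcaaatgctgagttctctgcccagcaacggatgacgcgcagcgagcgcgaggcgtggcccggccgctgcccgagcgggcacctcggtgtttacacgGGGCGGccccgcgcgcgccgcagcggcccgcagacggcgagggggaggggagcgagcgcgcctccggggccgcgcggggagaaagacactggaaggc
Sox11: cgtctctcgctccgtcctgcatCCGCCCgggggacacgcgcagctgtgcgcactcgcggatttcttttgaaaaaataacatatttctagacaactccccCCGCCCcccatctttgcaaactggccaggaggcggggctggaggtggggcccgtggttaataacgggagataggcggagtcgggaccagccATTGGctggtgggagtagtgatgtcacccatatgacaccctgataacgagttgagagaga
Sox15: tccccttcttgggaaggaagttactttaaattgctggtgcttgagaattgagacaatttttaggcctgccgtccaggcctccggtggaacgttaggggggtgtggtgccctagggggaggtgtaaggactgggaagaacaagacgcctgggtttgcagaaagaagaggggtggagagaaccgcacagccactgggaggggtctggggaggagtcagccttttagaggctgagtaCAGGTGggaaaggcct
Sox21: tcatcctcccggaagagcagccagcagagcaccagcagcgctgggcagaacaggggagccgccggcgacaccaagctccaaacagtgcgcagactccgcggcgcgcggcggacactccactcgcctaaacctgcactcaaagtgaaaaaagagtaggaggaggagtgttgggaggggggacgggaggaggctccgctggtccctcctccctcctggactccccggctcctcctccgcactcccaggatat
The CCAAT word was found 4 times before Sox4 and 1 time each before Sox2, Sox12 and Sox11, and 33.8% of all 32851 promoters of this length hold it. The GC box occurred 2 times before Sox2, 3 times before Sox12, where 2 matches overlap, and 2 times before Sox11 (32.7% of all promoters). The E-box word was found only before Sox15, 16 bases from the start (17.2% of all), and a SOX word only before Sox2 (25.2% of all). None of the 4 kinds of word was found before Sox21. The Sox15 stretch had 5 CpG dinucleotides and the other 5 had 11 to 35, against a median of 6 over all promoters. These words were chosen with the sequences in view, and a match is a description of the letters only.

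Sox9, the SoxE factor, had the largest difference in RPKM between S5 and the other pairs among the 10 genes. In SPOPmut it stood at 18.1, 16.3, 14.8, 11.4, 6.91 and 50.2 RPKM in S0 to S5. In SPOPwt it stood at 9.22, 13.1, 14.0, 11.3, 9.62 and 43.4 RPKM. Both S5 libraries lay above all 10 of S0 to S4, with a mean of 46.8 RPKM against 12.5 ± 3.43 (SD over 10 libraries), a ratio of 3.75 and a difference of 1.87 on the log2(RPKM + 1) scale. Behind these values were about 1090 to 2510 reads per library in S0 to S4 and 7010 and 7360 in S5. Basal and luminal genes were high in the same 2 libraries, and their part in the difference was not tested. In bulk RNA, fewer cells of a type and less RNA per cell cannot be told apart. Sox9 lies on chromosome 11 at 112782224 to 112787760 (plus strand, 3 exons, GRCm38).

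**Figure D2:**
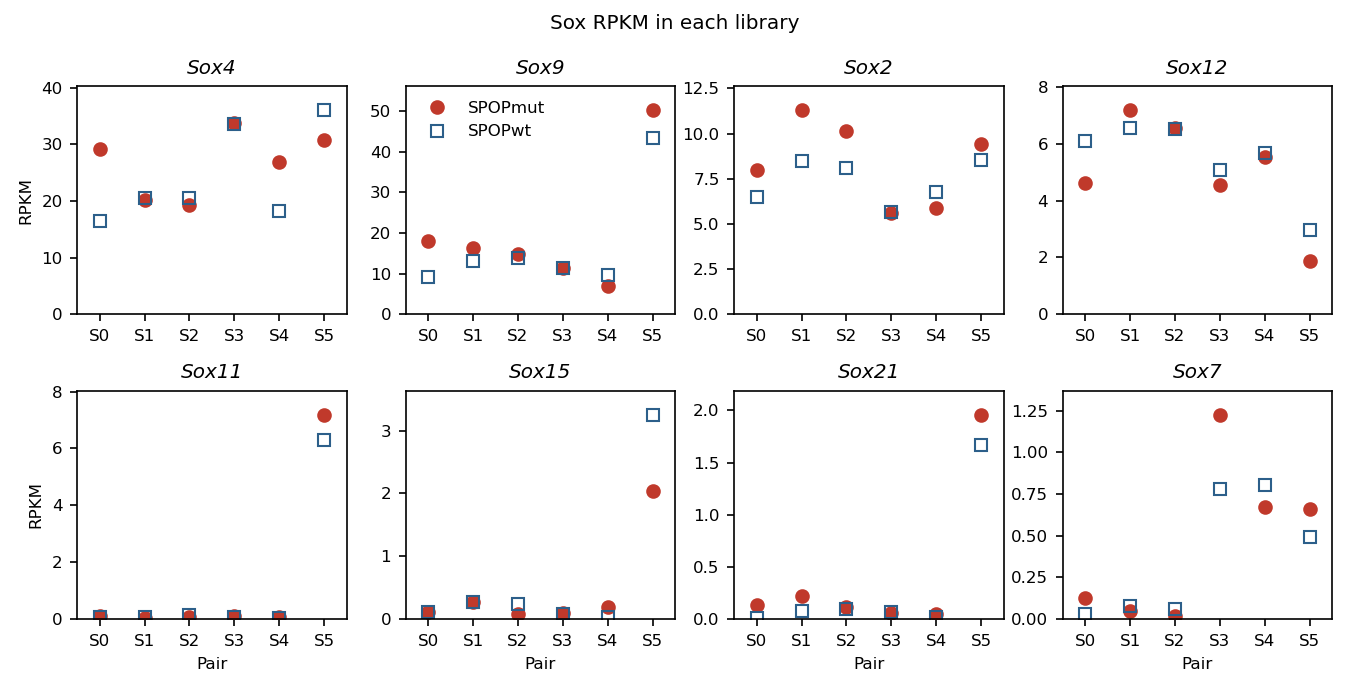
RPKM of 8 SOX genes (vertical axis, linear from 0, scaled per panel) by pair, with filled circles for SPOPmut and open squares for SPOPwt. Sox9, Sox11, Sox15 and Sox21 are highest in both S5 libraries, Sox12 is lowest there, and Sox7 is higher in S3, S4 and S5 than in S0 to S2.

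Sox11, Sox15 and Sox21 stood near 0 outside S5. Sox11, a SoxC factor of immature neurons, stood at 7.17 RPKM in the S5 mutant and 6.31 RPKM in its control, and at 0.039 to 0.132 RPKM in S0 to S4, about 10.8 to 38.8 reads against 2010 and 2150. The ratio of the means was 86.4. Sox15 stood at 2.03 RPKM in the S5 mutant and 3.24 in its control, against 0.0354 to 0.268 RPKM elsewhere. Sox21, a SoxB factor that usually represses, stood at 1.95 and 1.67 RPKM in S5, against 0.00696 to 0.222 RPKM elsewhere. The ratios of the means were 17.8 for Sox15 and 21.4 for Sox21. Like Sox9, these genes were high in the libraries with high basal and luminal sums, and the part of those cells was not tested.

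The counting limits these genes. Exons of Sox15 (chromosome 11, 69655314 to 69656727, plus strand) overlap those of Mpdu1 on the opposite strand, which stood at 12.5 to 16.7 RPKM in the 12 libraries. Exons of Sox21 (chromosome 14, 118233232 to 118237030, minus strand, 1 exon) overlap the non-coding Gm4675, at most 0.43 RPKM. The kit does not mark strand, so reads of such partners cannot be told apart and the low Sox15 values outside S5, about 1.18 to 8.42 reads, are uncertain. Sox11 lies on chromosome 12 at 27334264 to 27342574 (minus strand, 1 exon) with no overlapping gene in GENCODE M21.

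Sox12, the third SoxC factor, went the other way. It stood at 4.61, 7.17, 6.55, 4.54, 5.54 and 1.86 RPKM in SPOPmut, S0 to S5, and at 6.09, 6.54, 6.52, 5.07, 5.67 and 2.97 RPKM in SPOPwt. Both S5 libraries lay below all others, and the mean of S0 to S4 was 2.42 times that of S5 (a log2 difference of -1.01). Sox12 lies on chromosome 2 at 152393611 to 152398063 (minus strand). The order of the libraries by Sox12 was close to their order by summed proliferation genes: the 6 libraries lowest in Sox12 were the 6 lowest in those genes. The part of proliferation in the Sox12 levels was not tested.

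Sox4, the most abundant of the family in S0 to S4, did not separate S5. It stood at 29.2, 20.2, 19.3, 33.8, 26.9 and 30.7 RPKM in SPOPmut and at 16.5, 20.5, 20.6, 33.6, 18.2 and 36.0 RPKM in SPOPwt. The 2 libraries of S5 and the 2 of S3 were the 4 highest for Sox4, and the same 4 were the lowest for proliferation genes. The part of proliferation here was not tested either. Sox4 (chromosome 13, 28948919 to 28953713, minus strand, 1 exon) overlaps exons of the non-coding Gm26735 on the opposite strand, which stood at 19.6 to 46.8 RPKM, so reads of the pair cannot be told apart.

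**Figure D3:**
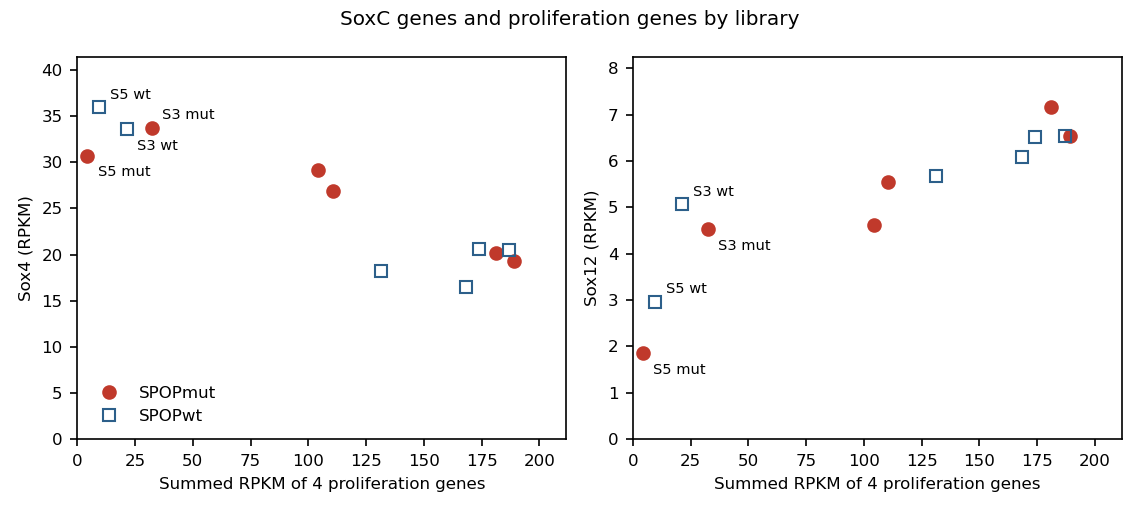
Sox4 (left) and Sox12 (right) RPKM against the summed RPKM of 4 proliferation genes (Mki67, Top2a, Ccnb1 and Cdk1) in the 12 libraries, with filled circles for SPOPmut and open squares for SPOPwt. The S3 and S5 libraries, lowest on the horizontal axis at 4.26 to 32.3, hold the 4 highest Sox4 values, and the S5 libraries the 2 lowest Sox12 values.

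Sox2, the SoxB factor best known from pluripotent and neural stem cells, was between 5.61 and 11.3 RPKM in every library. It stood at 8.0, 11.3, 10.1, 5.61, 5.87 and 9.40 RPKM in SPOPmut and at 6.5, 8.47, 8.10, 5.66, 6.74 and 8.55 RPKM in SPOPwt, about 326 to 771 reads. The S5 values lay within the range of S0 to S4 (a log2 difference of 0.24), while the basal and fibroblast sums of these pairs did not overlap. Within S0 to S4, 3 of the 4 libraries of S3 and S4 were below all 6 of S0 to S2, and the fourth, the S4 control at 6.74, was above the S0 control at 6.5. Sox2 (chromosome 3, 34650405 to 34652461, plus strand, 1 exon) lies inside an intron of the non-coding Sox2ot on the same strand. Neural and neuroendocrine genes (9 genes, summed) stood at 9.15 to 27.6 RPKM in the pairs S0 to S4 and at 2.08 to 3.54 in S5, with Chga listed at 0 throughout.

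Across the family, 7 of the 10 genes stood at 1 RPKM or more in at least 2 libraries, the filter used for this comparison. Of these, 4 had both S5 libraries above all 10 of S0 to S4 (24.9% of the 15508 genes that passed) and 1 had both below (27.0% of them). With a log2 difference of more than 1 as well, the counts stayed at 4 and 1, against 10.8 and 12.4% of all genes. The 1 below was Sox12, close to that bound at -1.01. It fell short of the bound with quantile normalization (-0.989), without S1 (-0.955) and without S2 (-0.970). Sox11, Sox15 and Sox21 passed the filter only through S5 and so had to lie above. Among the 4 genes that passed in every library, 1 was above, 1 below and 2 overlapped. The shares over all genes do not bear on these 4, since they include genes that passed in only 2 libraries. The comparison of S5 with S0 to S4 is a description, since S5 is 1 pair and was singled out with these data known.

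The SoxF genes were low. Sox7 stood at 0.126, 0.046, 0.017, 1.22, 0.67 and 0.659 RPKM in SPOPmut and at 0.028, 0.078, 0.06, 0.778, 0.805 and 0.493 RPKM in SPOPwt. All 4 libraries of S3 and S4 lay above all 6 of S0 to S2, with S5 in between. The S3 mutant was the only library in which Sox7 reached 1 RPKM. Sox18 was above 0 in 8 of 12 libraries and at most 0.13 RPKM, again in the S3 mutant, about 5.97 reads. No other library held more than 0.037 RPKM of Sox18. Sox17, an endoderm and artery factor on chromosome 1 (4490931 to 4497354, minus strand), was listed at 0 in all 12 libraries.

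Endothelial genes moved with Sox18 in that library. Of 12 endothelial genes, 10 were highest in the S3 mutant, all of them below 1 RPKM there. The share of all genes highest in that library was not counted, so this is a description only. The sum of the 12 was 5.16 RPKM there against 1.59 to 2.54 in the other 11 libraries. The adhesion gene Cdh5 stood at 0.833 RPKM in the S3 mutant and at most 0.0398 elsewhere, and Tie1, a vascular receptor, at 0.337 RPKM and at most 0.012 elsewhere. Sox7 stood at 0.67 to 0.805 RPKM in both S4 libraries, where the endothelial sum was 1.85 and 1.86. Most of the S4 sums was Egfl7 (1.30 RPKM in the mutant and 1.46 in the control), which was not highest in the S3 mutant (1.24 RPKM). The sum thus says little of the other endothelial genes in S4. The part of endothelial cells in the Sox18 and Sox7 values was not tested. Sox7 lies on chromosome 14 at 63943673 to 63950732 (plus strand) and Sox18 on chromosome 2 at 181669836 to 181671640 (minus strand).

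**Figure D4:**
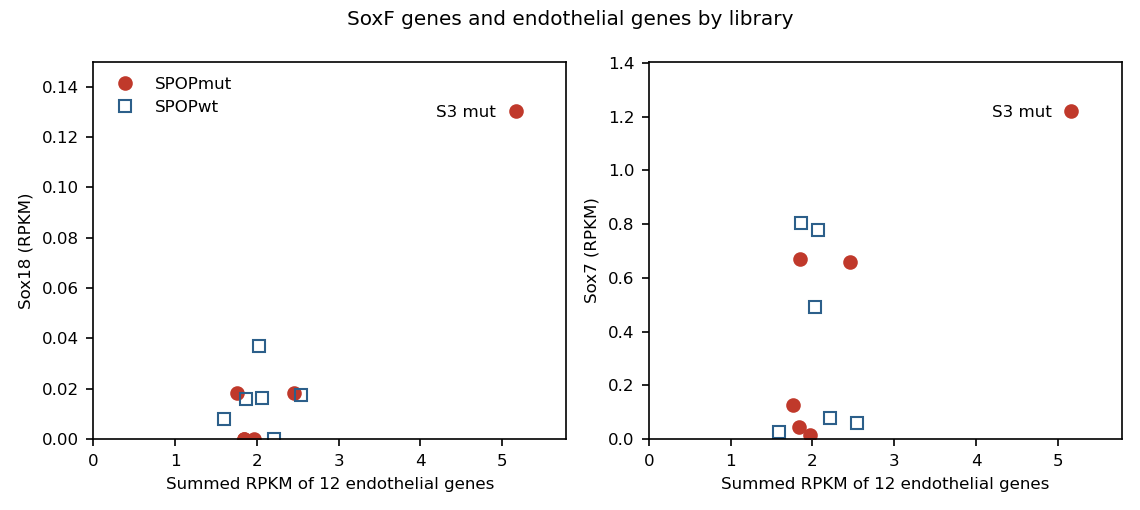
Sox18 (left) and Sox7 (right) RPKM against the summed RPKM of 12 endothelial genes in each library, with filled circles for SPOPmut and open squares for SPOPwt. The S3 mutant stands alone at 5.16 on the horizontal axis and is highest for both genes, and Sox7 also varies among libraries with sums near 2. Much of the sum outside the S3 mutant is Egfl7 (0.966 to 2.15 RPKM).

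Between SPOPmut and SPOPwt no SOX gene passed the test. Differences were taken within pairs on the log2(RPKM + 1) scale and fitted in limma over the 13600 genes at 1 RPKM or more in at least 6 libraries, with p-values adjusted by Benjamini-Hochberg. For S0 the values do not show the pairing: across genes, deviations of its partners from their group means correlated by only 0.0602. Of the 10 genes, 4 were kept (Sox2, Sox4, Sox9 and Sox12) and 0 were called. Over all genes kept, 0.0% were called higher and 0.0% lower, and 761 (5.6%) had an unadjusted p under 0.05, none of them a SOX gene described here.

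Sox9 stood at 19.6 ± 15.5 RPKM in SPOPmut and 16.8 ± 13.2 in SPOPwt (SD, n = 6), or 13.5 ± 4.42 and 11.4 ± 2.09 in S0 to S4 alone (SD, n = 5). The mutant was above its control in 5 of 6 pairs, with a mean log2 difference of 0.18 (SE 0.15, 95% interval -0.16 to 0.52, limma adjusted p = 0.887). The difference was 0.90 in S0 and -0.43 in S4, and the mean was 0.032 without S0 and 0.30 without S4. An exact two-sided sign-flip permutation test over the 6 pairs gave p = 0.406, where 6 pairs allow no p below 0.03125.

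For Sox4 the levels were 26.7 ± 5.81 RPKM in SPOPmut and 24.3 ± 8.36 in SPOPwt (SD, n = 6). The mean difference of 0.17 (SE 0.14, 95% interval -0.15 to 0.49, limma adjusted p = 0.887) rested on S0 (0.79) and S4 (0.54), with -0.22 to 0.0065 in the other pairs. Without S0 it was 0.042, and without S4 0.092. Its sign-flip p was 0.469 (exact). The summed proliferation genes were lower in the mutant in S0 (104 against 168 RPKM) and S4 (110 against 131 RPKM), but also in S1 (181 against 187 RPKM) and S5 (4.26 against 9.61 RPKM), where Sox4 was lower in the mutant. They were higher in the mutant in S2 (189 against 174 RPKM) and S3 (32.3 against 21.3 RPKM). The sum of smooth muscle genes went opposite ways in S0 and S4, at 114 against 811 RPKM in S0 and 500 against 169 RPKM in S4. Most of this sum was Acta2, at 107 to 758 RPKM in S0 to S4, where the next highest, Myl9, reached at most 45.0. The part of these genes was not tested.

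Sox2 was at 8.39 ± 2.31 RPKM in SPOPmut and 7.34 ± 1.20 in SPOPwt (SD, n = 6). In 4 of 6 pairs the mutant was above its control, by 0.26 to 0.38 in S0, S1 and S2 and by 0.12 in S5, and lower in S3 (-0.011) and S4 (-0.17). The mean was 0.15 (SE 0.084, 95% interval -0.048 to 0.34, limma adjusted p = 0.887, exact sign-flip p = 0.188). Sox12 was at 5.05 ± 1.88 RPKM in SPOPmut and 5.48 ± 1.35 in SPOPwt (SD, n = 6). It was lower in the mutant in 4 of 6 pairs, most in S5 (-0.47) and S0 (-0.34), with a mean of -0.14 (SE 0.089, 95% interval -0.35 to 0.063, limma adjusted p = 0.887, exact sign-flip p = 0.188). Without S5 the Sox12 mean was -0.075. For each of these genes the interval includes 0 and also changes larger than its mean.

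**Figure D5:**
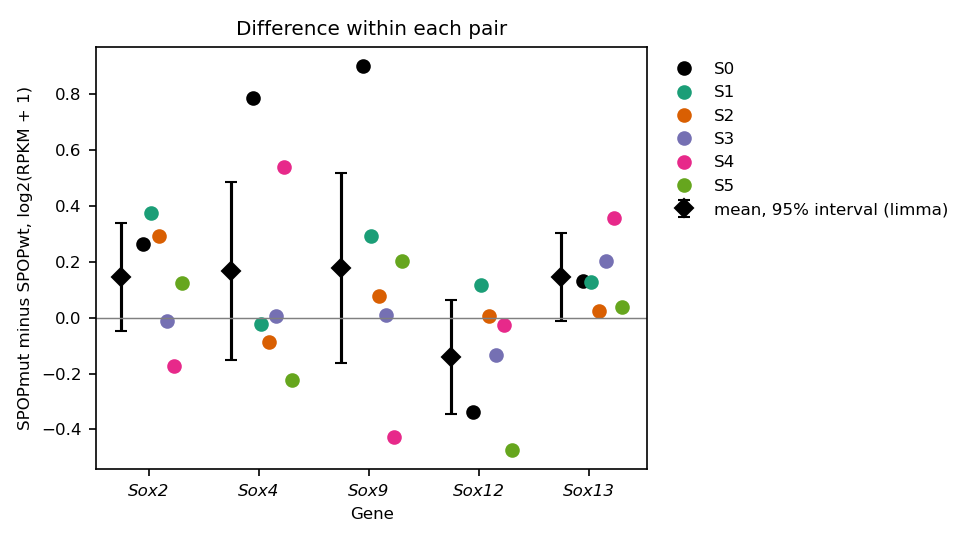
SPOPmut minus SPOPwt on the log2(RPKM + 1) scale (vertical axis) for 5 SOX genes, with a coloured point per pair and a black diamond with bars for the mean and 95% interval of the limma fit. All 5 intervals include 0. The S0 points of Sox4 and Sox9, at 0.79 and 0.90, are the highest in the plot.

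The other 6 genes did not pass the level filter of this fit. Of these, Sox11, Sox15 and Sox21 reached 1 RPKM in S5. There Sox11 was higher in the mutant by 0.16, Sox21 higher by 0.15 and Sox15 lower by 0.49 on the log2(RPKM + 1) scale, each from 1 pair. With the filter at 2 libraries these 3 entered the fit and had limma adjusted p-values of 0.939, 0.862 and 0.876. In 5 of 6 pairs Sox21 was above its control, with the mutant of S0 at 0.137 RPKM against 0.00696 in its control, about 17.5 reads against 1. Of the 4 genes kept, 0 had 1 direction in all 6 pairs, where 5.3% of all genes kept had (3.62% higher in SPOPmut and 1.68% lower).

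Of the 9 other Sox genes listed, only Sox13, a SoxD factor, reached 1 RPKM. It stood at 2.04 ± 0.24 RPKM in SPOPmut and 1.76 ± 0.32 in SPOPwt (SD, n = 6) with the mutant above its control in 6 of 6 pairs and a mean of 0.15 (SE 0.068, 95% interval -0.010 to 0.30). Its exact sign-flip p was 0.03125, the smallest that 6 pairs allow, and its limma adjusted p 0.887. Both tests count S1 and S2 as separate pairs, although their libraries were the closest to each other in each genotype. The other SoxD genes, chosen after their values were seen, differed in opposite directions. Sox5 was at 0.0166 to 0.0167 RPKM in S5 and 0.111 to 0.399 elsewhere, and Sox6 at 0.93 to 0.969 RPKM in S5 and 0.00878 to 0.161 elsewhere. Sox1, Sox3 and Sox14 were listed at 0 throughout, and Sox8, Sox10 and Sox30 at no more than 0.0187 RPKM.

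Partner factors and known targets were followed by lists. Of 16 partner factors, 6 were kept in the genotype fit and 0 were called, with 4 higher and 2 lower on average and a median of 0.11, against 0.00055 over all genes. The HMG-box partners of beta-catenin Tcf7l1 (0.19, SE 0.080, limma adjusted p = 0.886) and Tcf7l2 (0.13, SE 0.065, limma adjusted p = 0.887) had the smallest p. Between S5 and S0 to S4, 2 partners had both S5 libraries above and 3 below, of 9 that passed the filter (24.9 and 27.0% of all genes). Of the 3, Mef2c passed only through S0 to S4 and so could not lie above. It stood at 0.132 to 1.37 RPKM there and at most 0.00361 in S5. Trp63, the basal cell factor p63, stood at 11.01 to 12.45 RPKM in S5 and 0.112 to 2.28 elsewhere, and Tcf7l1 at 1.77 to 1.91 and 4.48 to 6.57.

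Cartilage genes that SoxE and SoxD factors are known to drive were mostly low. Of the 12 listed, 11 were in the files and 4 passed the filter. Col2a1, Col9a3 and Col11a2 passed only through S5 and so had to lie above, and Col11a1 passed only through S0 to S4 and could not, so no count over the 4 is given. Col9a3 was at 1.68 to 3.33 RPKM in S5 and at most 0.161 elsewhere, whereas Col11a1 reached at most 0.00126 in S5 and was at 2.36 to 7.83 RPKM elsewhere. Acan, a cartilage proteoglycan, stood at no more than 0.0356 RPKM anywhere. In the genotype fit Col11a1 was the single gene kept (0.082, SE 0.14, limma adjusted p = 0.925).

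Of 6 SoxC target genes, 5 passed the filter, and 4 of them had both S5 libraries below all others and 0 above (27.0 and 24.9% of all genes). Of the 4, Tubb3 (0.0721 to 0.142 RPKM in S5) passed only through S0 to S4 and so could not lie above. The median log2 difference of the 5, -1.49 against -0.039 over all genes, is the value of Tubb3 and carries the same limit. Stmn1, a microtubule regulator, was at 3.45 to 4.32 RPKM in S5 and 7.79 to 29.9 elsewhere. Dbn1, an actin-binding protein, was at 5.13 to 6.79 and 10.3 to 31.6 RPKM. Proliferation genes were lowest in S5 as well (4.26 and 9.61), and their part was not tested. By genotype 0 of 5 were called, and the smallest p belonged to Ezh2 (-0.15, SE 0.094, limma adjusted p = 0.887) and Stmn1 (0.096, SE 0.097, limma adjusted p = 0.895).

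Of 14 genes of signals that act on Sox9 and Sox2 in epithelia, 10 passed the filter, 2 with both S5 libraries above and 4 below (24.9 and 27.0% of all genes). Of the 4, Fgfr1, Gli3 (at most 0.985 RPKM in S5) and Bmp4 (at most 0.137) passed only through S0 to S4. They could not lie above, so the shares over all genes do not bear on this count. In this list, the partner factors and the SoxC targets, genes that reached 1 RPKM only in S0 to S4 could not lie above. The receptor Fgfr1 was at 0.0994 to 0.153 RPKM in S5 and 14.9 to 40.4 elsewhere, and Hes1, a Notch target, at 63.8 to 83.3 and 1.23 to 6.61 RPKM. By genotype 0 of 9 were called: Fgfr1 differed by 0.19 (SE 0.098) and Notch1 by 0.18 (SE 0.092), each with a limma adjusted p of 0.887. Of the 12 endothelial genes only Egfl7 was kept (-0.14, SE 0.070, limma adjusted p = 0.887), with 0.966 to 1.17 RPKM in S5 and 1.14 to 2.15 elsewhere. Flt1 showed the largest difference of S5 among them, 0.52, at 0.585 to 1.16 RPKM against 0.112 to 0.704.

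The genes whose levels ran most like each SOX gene were ranked by Pearson r of log2(RPKM + 1), as a description over libraries that share pairs and depth. For Sox4, Gm26735 came first over the 12 libraries (r = 0.967), the gene whose exons it overlaps, followed by Katna1 (0.961) and Mir27b (0.96). Sox9 was nearest to Itsn2 and Ralgapb (both 0.969) and Man1a (0.968), and over the 10 libraries of S0 to S4 to Rhou (0.955), Bbc3 (0.937) and Ralgapb (0.92). Sox12 was nearest to the glycolysis gene Aldoa and to Tsen34 (both 0.976) and Gm7589 (0.975). For Sox2 the values were lower over the 12 libraries, with Gm26699 (0.932), Slk (0.922) and Wac (0.918). Over S0 to S4 the nearest genes were Enah (0.979), Rgma (0.968) and Cox5b (0.965) for Sox2, Zfp821 (0.984), Gm15787 (0.978) and Zfp870 (0.977) for Sox4, and 1110008F13Rik (0.99), Irf2bp1 (0.98) and Wdr82 (0.977) for Sox12. Only Ralgapb recurred in both rankings of the same SOX gene.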

How the data were processed

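The 12 libraries were paired-end sequenced after preparation with version 2 of the TruSeq RNA kit, an unstranded method, per the labels' protocols. The authors deposited an RPKM value for each of 43243 gene names in every library. The submitters' processing notes name STAR 2.4.0j, mm10 and GRCm38. How reads were counted, and on which annotation, is not given in the sources used here.

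Depth came from the steps between low values, with exon lengths of GENCODE M21 (39432 names matched, 91.2%), and a step may be a read or a read pair. Of values up to 20 approximate reads, 41.4 to 44.2% lay within 0.04 of a multiple of 0.5 reads (16% by chance). That is too few to recover reads, so there is no count test or counting interval. A chi-square check for libraries deposited more than once gave lowest medians of 0.655 (S1 and S2 controls) and 0.900 (S1 and S2 mutants). Sampling alone gives 0.455, and the next lowest was 2.50 (S0 and S4 mutants). No libraries were merged. S1 and S2 were counted as separate pairs in the tests, and whether they are independent cultures is not known.

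On log2(RPKM + 1), a scale that understates differences of low genes, limma 3.58.1 in R 4.3.3 fitted pair and genotype with a trended, robust prior to genes at an RPKM of 1 in at least 6 libraries, called at an adjusted p under 0.05. The code was tested on simulated data. Other steps used Python 3.11.15 (pandas 2.3.3, numpy 2.4.6) and, for plots, matplotlib 3.10.9. The exact tests were coded with numpy, and scipy 1.17.1 gave the chi-square value from sampling alone. The pairing comes from the labels, whose protocols speak of pairs. Deviations of partners from their group means correlated across genes by 0.753 to 0.954 in S1 to S5 and by 0.0602 in S0, where the values do not show the pairing. By levels, the S0 and S1 mutants were each closest to the S2 control, and the other mutants to their own partners. Promoters are RefSeq's (GRCm38.p6).

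The 10 genes, the lists and the contrast of S5 were chosen with earlier results of these data known. Named were the 10 genes, other Sox genes at 1 RPKM, the defining markers, the 2 genes of each list with the smallest p and the 2 with the largest S5 difference, and the 3 genes nearest in pattern to each SOX gene with a median of at least 1 RPKM. Sox5, Sox6, the other Sox genes at or near 0, Tie1, Chga, Krt18, Krt19, Col2a1, Col11a2, Acan, Mpdu1 and Gm4675 were named after their values were seen. So were Mef2c, Tubb3, Gli3, Bmp4 and Acta2. Alternatives changed the pseudocount, filter, scaling, block, weights and the pairs included.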

Additional observations from a re-analysis of the deposited data

Results flagged for a closer look

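In 36 groups of 6 values (the libraries of each genotype and the pair differences, for 12 SOX genes: 9 of the 10 described, with Sox5, Sox6 and Sox13), 13 held a value far from the other 5. Chance alone would mark about 1 in 20 groups, but S5 had already been singled out with these data known, so the tally is a description and no test of S5. Of the 13, 10 were the S5 value of a genotype: Sox9 at 50.2 RPKM in SPOPmut and 43.4 in SPOPwt, Sox11 at 7.17 and 6.31, Sox15 at 2.03 and 3.24, Sox21 at 1.95 and 1.67, and Sox6 at 0.93 and 0.969. Basal epithelial genes were high in the same libraries (summed RPKM 2302 to 3270).

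Sox18 in the S3 mutant stood far above the other SPOPmut libraries at 0.13 RPKM, and its difference within pair S3 was 0.153 on the log2 scale. Endothelial genes were highest in the same library. The remaining value was the S0 difference of Sox5, 0.332 on the log2 scale, where the mutant stood at 0.399 RPKM and its control at 0.111.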

How the results depend on the processing

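No paired fit and no other setting called a SOX gene. The count of genes called in the genotype comparison was 0 under the other pseudocount (0.1), both other filters, quantile normalization, scaling to the same sum and each pair left out in turn, with 544 to 1467 genes at an unadjusted p under 0.05. With no replicate block it was 0 too, with 29 such genes. With limma array weights per pair it was 9, none a SOX gene described here: Sox2 then had a difference of 0.18 (adjusted p = 0.271), Sox9 one of 0.053 (adjusted p = 0.794), Sox4 one of 0.023 (adjusted p = 0.920) and Sox12 one of -0.042 (adjusted p = 0.765). The weight was 0.161 for S0 and 4.61 for S2. Each of Sox2, Sox4, Sox9, Sox12 and Sox13 kept its direction under all 13 alternatives. Leaving out a pair, the mean ranged from 0.042 to 0.24 for Sox4 and from 0.032 to 0.30 for Sox9, lowest without S0 in both. For S5 against S0 to S4, 4 SOX genes were above and 1 below under every alternative but 1: without S3, Sox4 also lay above, making 5. The share of all genes with both S5 libraries below was 17.0% with no filter, against 27.0%. With a pseudocount of 0.1 the log2 differences of S5 grew to 5.28 for Sox11, 3.51 for Sox15, 3.44 for Sox21, 1.07 for Sox7 and -1.26 for Sox12, and with libraries scaled to the same sum (TPM) they were 4.11, 2.62 and 2.38 for Sox11, Sox15 and Sox21, since a pseudocount then weighs less against the values. Depth limits Sox18, Sox15 and Sox21 outside S5, where a value rested on at most 28 approximate reads.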
